A study of Homo sapiens with 4 samples.

Results

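The zinc finger genes of chromosome 19 were followed in human embryonic stem cells (ESCs). The cells, which the study calls naïve, were grown in flat culture and in a scaffold. Members were all protein-coding genes on chromosome 19 with a GENCODE symbol made of ZNF and a number, which gave 240 of the 60564 genes in the count tables and 240 of the 1470 protein-coding genes of that chromosome. The genes were matched through their Ensembl identifiers. A further 6 genes with a letter after the number and 3 readthrough genes were not members. Of the 240, 226 passed the filter on low counts and were tested, and the remaining 14 are described further down.

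C2H2 zinc finger proteins read DNA with a row of finger units, each folded around a zinc ion that is held by a pair of cysteines and a pair of histidines. Most zinc finger genes of chromosome 19 also code for a KRAB domain, which recruits the corepressor TRIM28 and, through it, the histone methyltransferase SETDB1, and many of these proteins silence retroelements in pluripotent cells. The genes lie in clusters that grew by tandem duplication, so neighbours are often close relatives in sequence.

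RNA was measured by RNA-seq in Elf1, a single established human ESC line that the study calls naïve. There were 2 libraries from each of 2 cultures. In 2-D the cells were attached to plastic coated with Matrigel. In 3-D single cells were enclosed in scaffolds of 2 polymers, PEG-8-SH and PEG-8-Acr, while these assembled, and stayed there for 21 days. Both cultures used the line's ESC expansion medium, with FGF2, LIF and inhibitors of GSK3 and MEK. The cells carried no genetic change, had been moved from mouse feeders to Matrigel before encapsulation, and the study calls the replicates independent and biological.

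The 4 libraries held between 18276147 and 33833778 counts, with the higher totals in 2-D. Values per library are CPM after TMM scaling, and levels between genes are compared only as CPM per kb of merged exon (level). The 5 general pluripotency markers summed to between 2947 and 3078 CPM in the 4 libraries. The 7 naïve markers summed to 62.1 to 66.0 CPM, and 2 of them, KLF17 and DPPA5, averaged under 1 CPM. The 5 fibroblast genes summed to 446 and 453 CPM in 2-D and to 454 and 495 CPM in 3-D, with COL1A1 and COL3A1 called higher in 3-D. COL1A2, the highest of them, averaged 321 CPM in 2-D and 313 CPM in 3-D and was not called (log2 fold change -0.04). DCN and LUM averaged under 1 CPM. The 5 markers of primed pluripotency summed to 1085 to 1134 CPM, with SFRP2 and THY1 called higher in 3-D. CD24, the highest of them, averaged 896 CPM in 2-D and 882 CPM in 3-D and was not called (log2 fold change -0.02). Lists for neural ectoderm, endoderm and trophoblast stayed between 0.487 and 6.36 CPM, and the mesoderm list between 54.4 and 59.1 CPM. The part of these cells in the results was not tested. In bulk RNA, a smaller number of cells of a type and less RNA per cell cannot be told apart.

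Promoter sequence is shown first, because 2 of the 3 clusters whose changes are described below, around ZNF91 and ZNF44, share a stretch that the cluster around ZNF480 mostly lacks. The RefSeq promoter table (GRCh38.p14, 250 bases before to 50 bases after the start) held 210 of the 240 members. The letters CCAATCAG, searched on both strands and holding the CCAAT box, were found in 29 of 29 promoters of the cluster around ZNF91, in 21 of 24 promoters of the cluster around ZNF44 and in 1 of 32 promoters of the cluster around ZNF480. They occurred in 3.97% of the 35116 promoters of the table. The longer form TCCAATCAGG, which contains the shorter one, was in 26 of 29, 14 of 24 and 0 of 32 of these promoters and in 0.347% of the table. Its outer letters were taken as the most common ones beside CCAATCAG in the ZNF91 cluster's own promoters. A high share in that cluster therefore follows from the choice and is no separate finding. The stretches of 100 bases below come from the strand of the gene, before the RefSeq start, and the capitals mark the matches to either form. The first 4 genes, chosen because they were called higher in 3-D, lie in the ZNF91 cluster, at chr19:23395476-23395575 (hg38, minus strand) for ZNF91, chr19:19900816-19900915 (plus strand) for ZNF93, chr19:20077872-20077971 (plus strand) for ZNF90 and chr19:20776173-20776272 (plus strand) for ZNF66. ZNF791, at chr19:12610820-12610919 (plus strand), is shown as the member of the ZNF44 cluster with the highest level.
ZNF91: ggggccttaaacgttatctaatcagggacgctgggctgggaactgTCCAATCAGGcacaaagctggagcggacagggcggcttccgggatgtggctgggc
ZNF93: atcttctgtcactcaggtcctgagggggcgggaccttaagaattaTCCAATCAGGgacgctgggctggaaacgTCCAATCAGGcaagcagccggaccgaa
ZNF90: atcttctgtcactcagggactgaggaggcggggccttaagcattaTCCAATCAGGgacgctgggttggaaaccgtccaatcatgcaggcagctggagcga
ZNF66: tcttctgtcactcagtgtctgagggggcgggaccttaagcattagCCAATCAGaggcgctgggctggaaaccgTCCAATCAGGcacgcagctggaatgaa
ZNF791: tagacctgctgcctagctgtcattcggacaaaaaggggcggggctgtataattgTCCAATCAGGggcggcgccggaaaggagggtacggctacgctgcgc

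The finger units below are single examples from the repeated part of the members' coding sequence. Each is the first unit of its gene with a fixed spacing of cysteines and histidines and a fixed form of the stretch after them. Positions in the row of fingers were not matched between genes. Each line below is the coding sequence of 1 finger of 28 residues, with the codons of the pair of cysteines and the pair of histidines in capitals, from the sense strand of hg38 in the transcripts of GENCODE release 44. They lie at chr19:23362094-23362177 (minus strand) for ZNF91, chr19:19933478-19933561 (plus strand) for ZNF93, chr19:20806291-20806374 (plus strand) for ZNF66, chr19:9566594-9566677 (minus strand) for ZNF121 and chr19:56664782-56664865 (minus strand) for ZNF835.
ZNF91: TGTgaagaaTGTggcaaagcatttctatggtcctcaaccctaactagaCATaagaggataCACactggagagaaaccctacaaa
ZNF93: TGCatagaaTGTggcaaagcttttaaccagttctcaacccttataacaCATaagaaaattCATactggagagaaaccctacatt
ZNF66: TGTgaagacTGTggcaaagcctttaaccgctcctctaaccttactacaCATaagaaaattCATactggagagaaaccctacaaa
ZNF121: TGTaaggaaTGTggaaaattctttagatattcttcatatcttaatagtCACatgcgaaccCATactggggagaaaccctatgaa
ZNF835: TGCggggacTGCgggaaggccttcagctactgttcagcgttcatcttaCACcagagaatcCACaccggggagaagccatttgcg

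Over the 84 bases, the unit of ZNF66 matched that of ZNF93 at 83.3% and that of ZNF91 at 82.1% of positions, whereas the unit of ZNF835 matched the others at 56.0 to 59.5%. GC content of the units ran from 35.7% in ZNF93 and ZNF121 to 57.1% in ZNF835. These units stretch over less than a read, and whether reads that map to several places were counted is not stated in the sources used here, so counts of close relatives may include each other's reads.

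Levels of the members were spread widely. The median level of the 226 tested members was 3.22 CPM per exon kb, beside 2.56 for all tested genes with an annotation entry and 3.61 for the other tested protein-coding genes of chromosome 19, and 24 members were above 10 and 43 below 1. Together the 240 genes took 0.667% and 0.679% of all counts in 2-D and 0.654% and 0.661% in 3-D. The highest level was that of ZNF146, whose protein consists almost wholly of fingers, at 80.2 CPM per exon kb. ZNF121 followed with 60.6, ZNF486 with 31.9, ZNF90 with 27.7, ZNF460 with 25.4 and ZNF480 with 22.6. Further down the order were ZNF93 with 17.8, ZNF253 and ZNF600 with 15.3 each and ZNF714 with 15.2, and the ranges of the last 3 over the libraries overlapped. ZNF146 had 328 and 334 CPM in 2-D and 336 and 332 CPM in 3-D, so its libraries overlapped between the cultures.

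The 14 untested members had at most 8 counts in any library. They were ZNF556, ZNF177, ZNF439, ZNF763, ZNF85, ZNF676, ZNF729, ZNF98, ZNF99, ZNF723, ZNF728, ZNF536, ZNF541 and ZNF534. Of these, 7 lie in the ZNF91 cluster, and ZNF676 and ZNF729 had 0 counts in every library. A count of 0 leaves room for up to 3 counts in a library, for counting error only. ZNF676 and ZNF85 each match a copy on an alternate contig of chromosome 19 at 100% identity, as does ZNF100, while ZNF66 matches one at 99.3% and ZNF98 another place on chromosome 19 at 98.1%. Counts of these 5 genes are uncertain for that reason. ZNF541, a factor of male meiosis, had 0 and 3 counts in 2-D and 0 and 2 counts in 3-D.

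Between the cultures, 17 of the 226 tested members were called, which is 7.52% beside 7.9% of all 22555 tested genes (adjusted p below 0.05). Of these, 12 were higher in 3-D, beside 4.54% of all tested genes, and 5 were lower, beside 3.36%. The share of called members was thus near that of all tested genes. It was below the 9.98% of the 14305 tested protein-coding genes, without a test of the difference. The median log2 fold change of 3-D over 2-D was 0.02 over the tested members and -0.00014 over all tested genes, with 127 of 226 members and 50% of all tested genes above 0. With scaling by library size alone the members' median was below 0, at -0.04, and that of all genes at -0.06. The libraries of the cultures did not overlap for 123 members, beside 50.5% of all tested genes, and 3-D was higher for 76 of them (25.4% of all tested genes) and lower for 47 (25.1%). Changes were small, with 44 members beyond 0.2 and 4 beyond 0.5 on the log2 scale in either direction.

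DESeq2 called 5 members, 4 higher and 1 lower, and 3.7% of all tested genes. Without 2-D replicate 1 the edgeR quasi-likelihood test called 5 members (4 higher, 1 lower), and without 2-D replicate 2 it called 7, none of them lower. DESeq2 called ZNF93, ZNF66, ZNF480, ZNF90 and ZNF121, and gave no adjusted p for ZNF181 and ZNF835. Over the alternatives that gave an adjusted p, ZNF93, ZNF66 and ZNF480 stayed called in 14 of 14, ZNF121 in 13, ZNF90 and ZNF708 in 12, ZNF91 and ZNF675 in 11 and ZNF600 and ZNF616 in 10. ZNF101, ZNF581 and ZNF805 were called in 9 of 14, ZNF317 and ZNF8 in 8 of 14, ZNF181 in 9 of 13 and ZNF835 in 8 of 13.

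**Figure D1:**
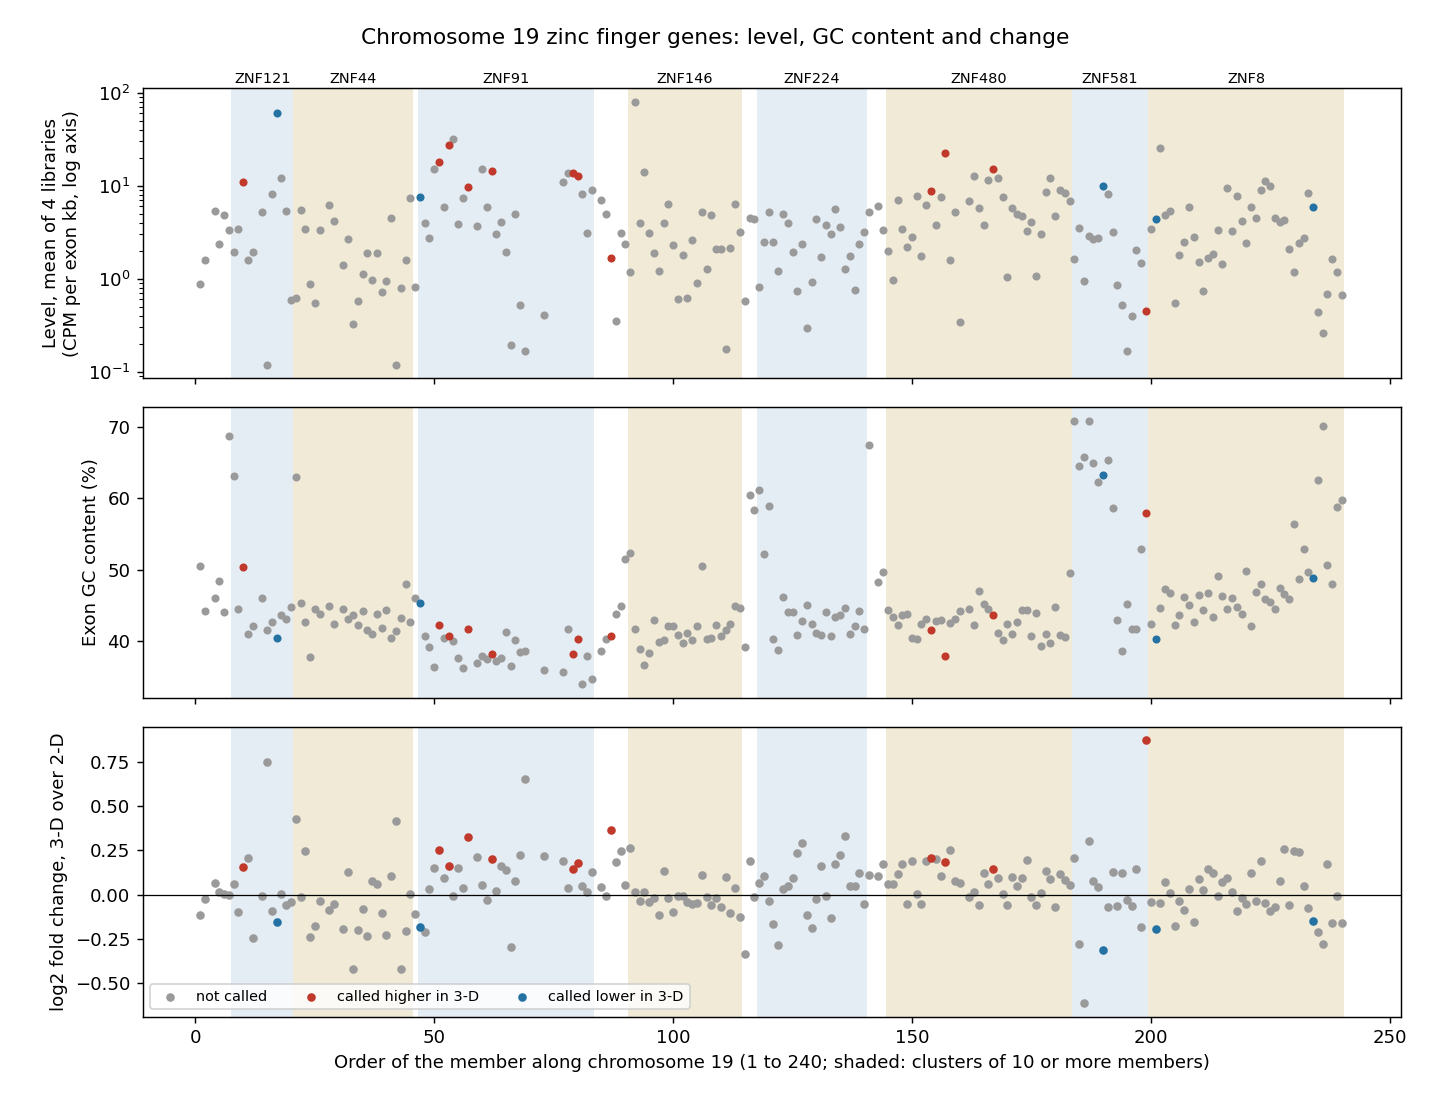
The tested members in their order along chromosome 19, with the mean level of the 4 libraries (CPM per exon kb, log axis) at the top, exon GC content (%) in the middle and the log2 fold change of 3-D over 2-D at the bottom. Shaded bands are the 8 clusters of 10 or more members, named by a member. Most of the 12 red points (called higher) lie in the ZNF91 and ZNF480 bands, where levels are also higher, and the 5 blue points (called lower) are spread over the ZNF121, ZNF91, ZNF581 and ZNF8 bands.

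Along the chromosome the members fell into 20 clusters, where a gap of over 500 kb between neighbours ended a cluster. The 8 clusters with 10 or more members held 218 of the 240 genes, and each is named here by 1 of its genes. The direction of change was not even over them. Most members of the ZNF91 cluster, on the short arm near the centromere, and of the ZNF480 cluster on the long arm had values above 0. In the ZNF44 cluster, farther out on the short arm, most had values below 0.

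The ZNF91 cluster (chr19:19668796-24129968, from ZNF101 to ZNF254) had 37 members, of which 30 were tested. Their median log2 fold change was 0.13, 25 of 30 were above 0, 6 were called higher and 1, ZNF101, lower. That is 83.3% above 0, 20% called higher and 3.33% lower. Over all tested genes the shares were 50%, 4.54% and 3.36%. The cluster was singled out after its values were seen, and the difference was not tested. The summed CPM of the tested members was 1550 and 1584 in 2-D and 1689 and 1681 in 3-D, without overlap. Set library against library, the median log2 ratio of the tested members was between 0.06 and 0.15 for the 4 pairs of a 3-D with a 2-D library, and 0.02 both between the 2-D libraries and between the 3-D libraries. The 50 other tested genes in the same interval, none of them protein-coding, had 25 above 0, a median of -0.01 and no calls in the edgeR quasi-likelihood test. Without 3-D replicate 2 the median of the ZNF91 cluster was 0.08, and with scaling by library size alone 0.07. Outside this cluster the 196 tested members had a median of 0.0025, with 102 above 0, and 6 called higher and 4 lower.

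The ZNF480 cluster (chr19:51571283-53580269, from ZNF175 to ZNF331) had 39 members and 38 tested, with a median log2 fold change of 0.08, 30 of 38 above 0, 3 called higher and 0 lower by the edgeR quasi-likelihood test. The share called in either direction was 7.89%, near the 7.9% of all tested genes. At an unadjusted p under 0.05 there were 12 of the 38 members, beside 4808 of all 22555 tested genes (21.3%). Summed CPM of the tested members was 1396 and 1422 in 2-D and 1492 and 1489 in 3-D, again without overlap, and the medians of the 4 library pairs lay between 0.07 and 0.10. The 33 other tested genes of the interval had a median of -0.01, with 15 above 0. Among them were 5 protein-coding genes, with a median of 0.21 and 3 above 0. With scaling by library size alone, which moved the median of all genes to -0.06, the cluster's median was 0.02.

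In the ZNF44 cluster (chr19:11483427-12640098, from ZNF653 to ZNF791) 23 of 25 members were tested. The median log2 fold change was -0.08, 8 of 23 were above 0 and edgeR called 0, with 2 at an unadjusted p under 0.05 and 0 called by DESeq2. Levels were low there, with a median of 1.40 CPM per exon kb against 6.60 in the ZNF91 cluster. Its summed CPM was 222 and 226 in 2-D and 220 and 215 in 3-D, close together but without overlap. The medians of the 4 pairs of a 3-D with a 2-D library lay between -0.10 and -0.0023. Between the 2-D libraries the median was 0.04, and between the 3-D libraries -0.01. The median of the ZNF44 cluster was -0.04 with GC and length offsets and also with the 2-D libraries thinned to 3-D depth, and -0.15 with scaling by library size alone. The tested members that hold the promoter letters CCAATCAG had a median of 0.14 in the ZNF91 cluster (27) and of -0.09 in the ZNF44 cluster (20). Of the tested members with a listed promoter, 0 in the ZNF91 cluster and 3 in the ZNF44 cluster lacked the letters. Letters and cluster thus cannot be told apart, and a part of the letters in the change was not tested.

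The other 5 large clusters had medians closer to 0. The ZNF146 cluster had 24 tested members, a median of -0.02, 7 above 0 and 0 called by edgeR, with 0 at an unadjusted p under 0.05 and 0 called by DESeq2. In the ZNF224 cluster the median was 0.05 over 23 members, 14 were above 0 and edgeR and DESeq2 called 0, with 3 at an unadjusted p under 0.05. The ZNF8 cluster at the end of the chromosome had a median of -0.02 over 41 members and 2 called lower. The ZNF121 cluster (12 tested, median -0.03) and the ZNF581 cluster (16 tested, median 0.01) each had 1 member called higher and 1 lower. The ZNF581 cluster also stood apart in base composition, with a median exon GC content of 60.4%. The 2 genes at the ends of the row, ZNF554 near the short arm's tip and ZNF446 near the long arm's tip, had log2 fold changes of -0.12 and -0.16 with adjusted p = 0.690 and 0.652 in the edgeR test.

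**Figure D2:**
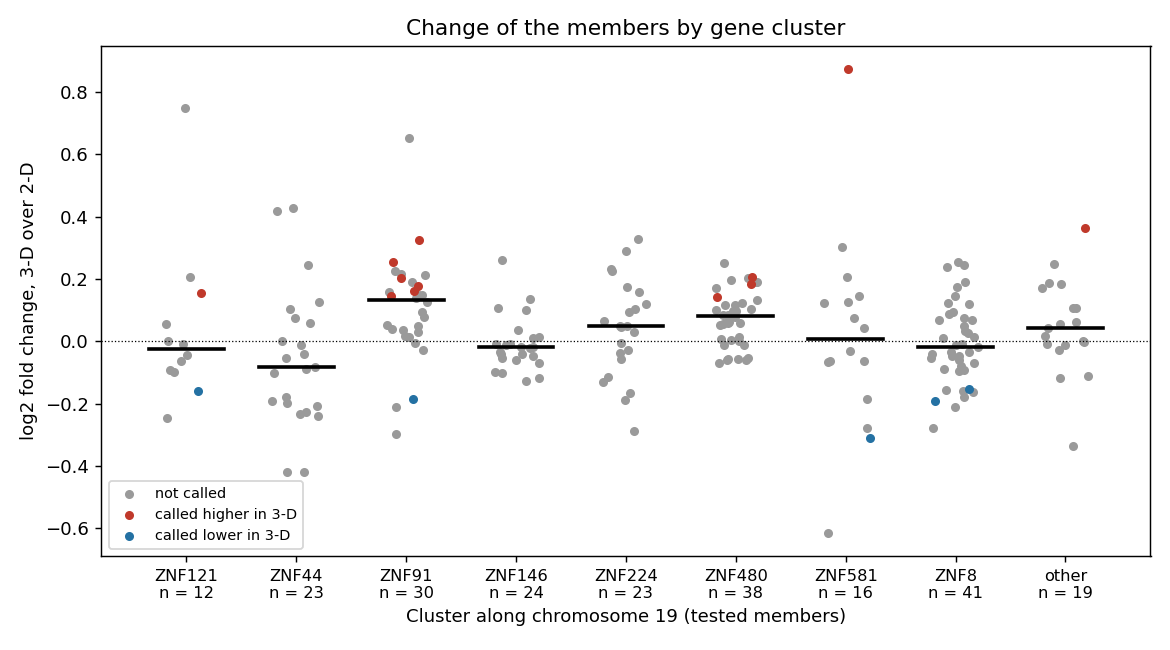
Log2 fold change of 3-D over 2-D for each tested member (points), grouped by the 8 large clusters in chromosomal order and the 19 tested members elsewhere, with the median of each group as a black bar. The bar is highest in the ZNF91 cluster at 0.13 and lowest in the ZNF44 cluster at -0.08, and points of every group lie on both sides of 0.

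ZNF93, which binds and restrains L1 retrotransposons, was higher in 3-D. It had 91.2 and 89.8 CPM in 2-D and 110 and 105 CPM in 3-D, so both 3-D libraries lay above both 2-D libraries, with a log2 fold change of 0.25 (SE 0.03, adjusted p = 0.000826, edgeR quasi-likelihood with Benjamini-Hochberg adjustment). ZNF66, another member of the same cluster, rose from 50.5 and 48.2 CPM in 2-D to 61.9 and 61.6 CPM in 3-D, also without overlap. Its log2 fold change was 0.32 (SE 0.04, adjusted p = 0.000746, edgeR). ZNF66 has the near-identical copy named above.

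ZNF91 restrains SVA elements and carries 32 finger patterns. Its CPM was 132 and 136 in 2-D and 149 and 147 in 3-D, without overlap, and the log2 fold change was 0.15 (SE 0.03, adjusted p = 0.0104, edgeR). ZNF90 had 158 and 160 CPM in 2-D and 183 and 173 CPM in 3-D, with every 3-D library above the 2-D libraries and a log2 fold change of 0.16 (SE 0.03, adjusted p = 0.00986, edgeR). Of the exon length of ZNF90, 22.7% overlaps other annotated genes.

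ZNF708 and ZNF675 complete the called genes of the ZNF91 cluster on the higher side. ZNF708 had 57.7 and 59.1 CPM in 2-D and 67.8 and 66.5 CPM in 3-D, a log2 fold change of 0.20 (SE 0.04, adjusted p = 0.00690, edgeR). ZNF675, described as a partner of TRAF6 that dampens its signalling, had 80.7 and 79.6 CPM in 2-D and 89.5 and 91.7 CPM in 3-D, a log2 fold change of 0.18 (SE 0.03, adjusted p = 0.00698, edgeR). For both genes the cultures did not overlap. The gene just outside the threshold over all members, ZNF253, lies in this cluster too, with a log2 fold change of 0.15 and adjusted p = 0.0596, while ZNF8 was the one just inside, at -0.15 and 0.0490.

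ZNF101 at the edge of the ZNF91 cluster went the other way. It had 54.0 and 52.7 CPM in 2-D and 48.4 and 45.4 CPM in 3-D, so both 3-D libraries were lower, with a log2 fold change of -0.18 (SE 0.05, adjusted p = 0.0351, edgeR). It also had the highest exon GC content of the cluster, 45.4%. ZNF486, the cluster's member with the highest level, had 134 and 139 CPM in 2-D and 139 and 133 CPM in 3-D, which overlapped, and adjusted p = 0.952 in the edgeR test. ZNF208, which has the most finger patterns of all members with 36, had 5.84 and 5.61 CPM in 2-D and 6.28 and 7.14 CPM in 3-D and was not called (adjusted p = 0.334, edgeR). ZNF257 was under 1 CPM in 2-D and had 1.22 and 0.893 CPM in 3-D (adjusted p = 0.272, edgeR).

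In the ZNF480 cluster the called genes were ZNF480, ZNF616 and ZNF600. ZNF480 had 102 and 103 CPM in 2-D and 115 and 118 CPM in 3-D, without overlap, and a log2 fold change of 0.19 (SE 0.03, adjusted p = 0.00294, edgeR). ZNF616 had 40.1 and 40.4 CPM in 2-D and 47.1 and 45.9 CPM in 3-D, a log2 fold change of 0.21 (SE 0.05, adjusted p = 0.0235, edgeR). For ZNF600 the values were 104 and 106 CPM in 2-D and 116 in each 3-D library, a log2 fold change of 0.14 (SE 0.03, adjusted p = 0.0133, edgeR). In each of the 3 genes the cultures were separated by more than the replicates of a culture differed.

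Other members of this cluster have been tied to retroelements or to imprinting and were not called. ZNF649 binds L1 elements and had a log2 fold change of 0.12 (adjusted p = 0.318, edgeR). ZNF765, which also binds L1, had one of -0.07 (adjusted p = 0.406, edgeR). ZNF808, needed for pancreas development and known to bind MER11 elements, had one of 0.01 (adjusted p = 0.915), and ZNF331, an imprinted gene, one of 0.05 (adjusted p = 0.484). Under library size scaling the values of ZNF808 and ZNF331 were below 0. ZNF534 had at most 2 counts in a library.

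The remaining higher genes lie elsewhere. ZNF835 had the largest log2 fold change of all tested members, 0.87 (SE 0.23, adjusted p = 0.0391, edgeR), but its counts were few, with 38 and 34 in 2-D and 43 and 35 in 3-D, or 1.10 CPM in each 2-D library and 2.09 and 1.95 CPM in 3-D. The raw counts thus overlapped, while the CPM, which divide by the smaller totals of the 3-D libraries, did not. ZNF181 had 8.94 and 9.44 CPM in 2-D and 12.4 and 11.3 CPM in 3-D, a log2 fold change of 0.36 (SE 0.10, adjusted p = 0.0396, edgeR). ZNF317 on the short arm had 53.0 and 52.5 CPM in 2-D and 58.0 and 59.5 CPM in 3-D, a log2 fold change of 0.16 (SE 0.04, adjusted p = 0.0398, edgeR). ZNF181 and ZNF317 did not overlap between the cultures either.

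Among the lower genes, ZNF121 had the second highest level of all members. It had 461 and 466 CPM in 2-D and 416 and 414 CPM in 3-D, with both 3-D libraries below, and a log2 fold change of -0.16 (SE 0.03, adjusted p = 0.00559, edgeR). ZNF581, a short gene with 4 finger patterns and an exon GC content of 63.2%, had 17.9 and 18.4 CPM in 2-D and 13.8 and 15.6 CPM in 3-D, a log2 fold change of -0.31 (SE 0.08, adjusted p = 0.0416, edgeR). Of its exon length, 24.9% overlaps CCDC106 and ZNF580. The groups did not overlap for either gene.

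ZNF805 and ZNF8, of the cluster at the end of the long arm, were lower as well. ZNF805 had 46.6 and 47.7 CPM in 2-D and 40.1 and 42.5 CPM in 3-D, a log2 fold change of -0.19 (SE 0.05, adjusted p = 0.0391, edgeR). ZNF8 had 56.9 and 57.3 CPM in 2-D and 52.1 and 50.7 CPM in 3-D, a log2 fold change of -0.15 (SE 0.04, adjusted p = 0.0490, edgeR), and 20.7% of its exon length overlaps other genes. Both were separated between the cultures. In the same cluster ZNF417 and ZNF587, a closely related pair that binds HERV-K sequences, had log2 fold changes of -0.07 and -0.09 (adjusted p = 0.615 and 0.235, edgeR), and ZNF274, which brings SETDB1 to the 3′ ends of zinc finger genes, had one of 0.05 (adjusted p = 0.778) that was below 0 under library size scaling.

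Other members with a described role were not called. ZNF296, a factor of pluripotent cells in which no KRAB A box was found, had 8.62 and 7.69 CPM in 2-D and 9.001 and 8.59 CPM in 3-D, which overlapped (log2 fold change 0.11, adjusted p = 0.645, edgeR). ZNF224, known as a repressor of the aldolase A gene, had 31.0 and 31.1 CPM in 2-D and 31.5 and 29.3 CPM in 3-D, and 42.4% of its exon length overlaps an antisense gene. ZNF382 had 21.9 and 20.7 CPM in 2-D and 20.6 and 21.5 CPM in 3-D. ZNF420, known to hold back p53, had 10.4 and 11.1 CPM in 2-D and 10.2 and 10.5 CPM in 3-D. In each of these genes the libraries of the cultures overlapped.

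**Figure D3:**
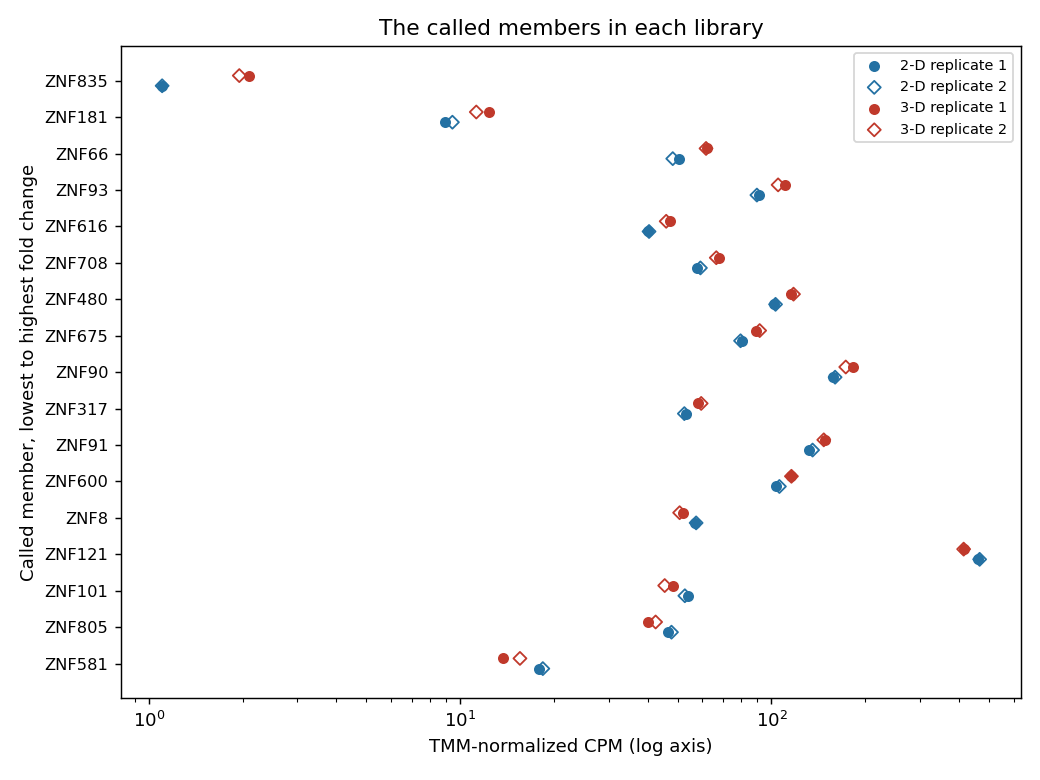
TMM-normalized CPM (log axis) of the 17 called members in the 2-D (blue) and 3-D (red) libraries, with circles for replicate 1 and diamonds for replicate 2 and genes ordered by log2 fold change from ZNF581 at -0.31 to ZNF835 at 0.87. For each gene the red and blue symbols do not overlap, and replicates of a culture lie close together.

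The exons of the members were poorer in GC than those of their chromosome. Their median exon GC content was 43.1%, against 59.6% for the 835 other tested protein-coding genes of chromosome 19 and 47.3% for all tested genes with an annotation entry. The ZNF91 cluster was the lowest of the large clusters at 38.2%. Across all 22467 tested genes with a GC value the log2 fold change was weakly and positively related to GC content (Spearman rho 0.14), and likewise across the other protein-coding genes of chromosome 19 (rho 0.10, n = 835) and across 222 numbered ZNF genes of other chromosomes (rho 0.12). Across the 226 members rho was -0.08, 0.03 across the 196 outside the ZNF91 cluster and 0.13 across the 86 without exon overlap or a near-identical copy, so its sign depended on which members were included. These are descriptions across genes, which share the 4 libraries and are not replicates.

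Below 40% GC, the members and the rest of the genes had medians on opposite sides of 0. The 33 tested members there had a median log2 fold change of 0.04 with 23 above 0, whereas all 3704 tested genes in that range had -0.04 with 1482 above 0. The ZNF91 cluster held 20 of the 33, with a median of 0.14 and 17 above 0, and the 13 others had a median of -0.01 with 6 above 0, on the same side as all genes. Between 40% and 45% the medians were 0.0034 for 125 members and -0.02 for all 5279 genes. Above 55% they were 0.04 for 23 members and 0.05 for all 5492 genes. With offsets for GC content and gene length the median of the ZNF91 cluster was 0.16.

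**Figure D4:**
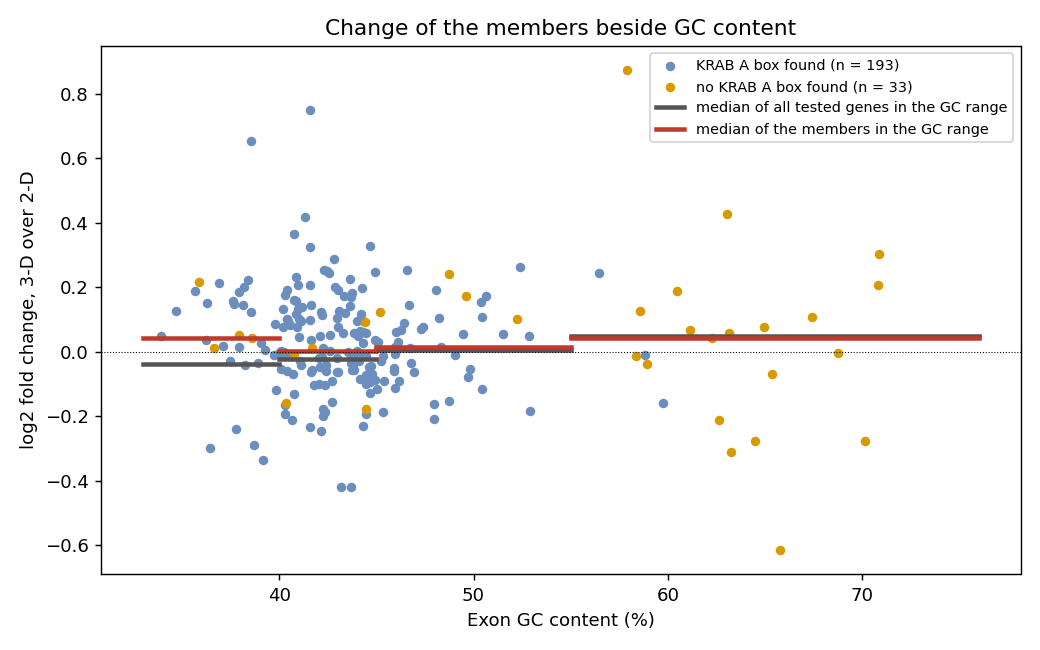
Log2 fold change of 3-D over 2-D against exon GC content (%) for the tested members, coloured by whether a KRAB A box was found, with bars for the medians of the members (red) and of all tested genes (grey) in 4 GC ranges. Under 40% GC the red bar lies at 0.04 and the grey one at -0.04, and above 55% they nearly coincide.

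The other genes of the chromosome and other zinc finger genes give the surroundings. Of the 835 other tested protein-coding genes of chromosome 19, 108 were called higher and 26 lower, 134 in all (16.05%). Their median log2 fold change was 0.06. Of 222 tested numbered ZNF genes on other chromosomes, 13 were called higher and 1 lower (6.31% in all), with a median of 0.04. Of the 226 members, 12 were higher and 5 lower (7.52% in all), with a median of 0.02. Called in either direction were 9.98% of all tested protein-coding genes and 7.9% of all tested genes. These shares and medians stand side by side without a test of the difference.

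By protein, a KRAB A box was found in 204 of the 240 members. Of the 193 tested ones 11 were called higher and 3 lower, with a median log2 fold change of 0.01 and a median exon GC content of 42.7%. The 33 tested members without it had 1 called higher and 2 lower, a median of 0.05 and 58.9% GC. Called in either direction were 7.3% of the members with the box and 9.1% of those without, beside 7.9% of all tested genes. The canonical transcripts held 1 to 36 finger patterns with a median of 12. For members with up to 9 fingers the median log2 fold change was -0.01 (58 tested, 0 called higher and 4 lower, edgeR). Of these, 10 had an unadjusted p under 0.05. Those with 10 to 14 fingers had a median of 0.02 (101 tested, 7 higher and 1 lower). With 15 or more it was 0.08 (67 tested, 5 higher and 0 lower), and 19 had an unadjusted p under 0.05 (edgeR). In this order, 6.9%, 7.9% and 7.5% of the groups were called in either direction, beside 7.9% of all tested genes. Of all tested genes, 4.54% were called higher and 3.36% lower, and 21.3% had an unadjusted p under 0.05.

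Genes that act with KRAB zinc finger proteins were listed apart from the members. Of 20 such genes 19 were tested, 1 was called higher and 2 lower, and their median log2 fold change was 0.02. Over all tested genes 4.54% were called higher and 3.36% lower. One of the 2 lower genes is DAXX, whose count is uncertain, as described below. TRIM28, the corepressor itself, had 580 and 566 CPM in 2-D and 556 and 603 CPM in 3-D, which overlapped, and a log2 fold change of 0.02 (SE 0.04, adjusted p = 0.874, edgeR) that was below 0 under library size scaling and under GC and length offsets, at -0.05 and -0.04. SETDB1, which methylates histone H3 at lysine residues, rose from 54.9 and 54.0 CPM to 62.4 and 60.4 CPM, a log2 fold change of 0.17 (SE 0.04, adjusted p = 0.0230, edgeR). CBX3, which codes for a heterochromatin protein of the HP1 family, had 244 and 241 CPM in 2-D and 222 and 201 CPM in 3-D, a log2 fold change of -0.20 (SE 0.04, adjusted p = 0.0101, edgeR). Neither gene overlapped between the cultures.

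DAXX, a histone chaperone, had 1.92 and 2.30 CPM in 2-D and 0.681 and 0.614 CPM in 3-D, a log2 fold change of -1.69 (SE 0.28, adjusted p = 0.00257, edgeR). Its transcripts match 4 further places of hg38 at 98% identity or more, so its count is uncertain. The HP1 genes CBX1 and CBX5 had log2 fold changes of -0.02 and -0.09 (adjusted p = 0.753 and 0.0961, edgeR). ZNF445 and ZFP57 protect imprinted regions. ZNF445 had a log2 fold change of -0.09 (adjusted p = 0.116, edgeR), and ZFP57 was not tested, with reads in 1 library only. Transcripts of ZFP57 match 6 further places of hg38 at the same identity limit, so its low count is uncertain too.

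Of the members, 143 share exon sequence with another annotated gene, 34 of them over more than 20% of their exon length, and the strand setting of the counting is not stated in the sources used here. Leaving out every member with any exon overlap or a near-identical copy left 7 called, 5 higher and 2 lower, with a median log2 fold change of 0.05 over 86 tested members. The other 10 called members, ZNF93, ZNF90, ZNF66 and ZNF480 among them, belong to the group left out, several of them with an overlap of a few percent of their exons.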

How the data were processed

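RNA of Elf1 cells was sequenced with paired ends after depletion of ribosomal RNA, in 2 libraries per culture. Per the labels and the study's methods, the authors trimmed reads with Trim Galore 0.6.3, mapped them to hg38 with HISAT2 2.1.0 and assigned them to GENCODE release 30 genes with featureCounts 1.6.4. Each deposited count is a whole number for a gene in 1 library, not normalized. The authors also deposited a normalized signal, in which DESeq2 size factors scale the counts, and it served only in alternatives. The columns of the authors' own comparison (log2 fold change, its error, Wald statistic, p and adjusted p) were not used. The strand and multimapping settings are not given in the sources used here.

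Names, positions, exon lengths and GC content came from GENCODE release 44 (hg38), and 269 of 60564 identifiers had no entry there. Counts were fitted with edgeR 4.0.16 (R 4.3.3) over the 22555 genes that passed filterByExpr, with TMM, the quasi-likelihood test with condition alone and Benjamini-Hochberg adjustment over all of them. The SE of a log2 fold change was computed as its absolute value divided by the root of the F statistic. The fit was tested on simulated data. Finger patterns (C, 2 to 4 residues, C, 12 residues, H, 3 to 5 residues, H or C) and a KRAB A box profile (pyhmmer 0.12.3, E-value below 0.001) were searched in the canonical coding sequences. A planned search for SCAN domains was not run. Near-identical copies were sought with minimap2 2.31-r1302 at 98% identity over 80% of a transcript.

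Libraries were grouped by their labels. Between replicates, counts differed by more than sampling noise (chi-square over degrees of freedom 2.45 in 2-D and 4.39 in 3-D), so each was kept. Totals of 18276147 to 33833778 counts limit the precision for members with few counts. Genes were named by rule: up to 10 called members with the largest change in each direction, the 10 with the highest level, the first and last along the chromosome, 20 members with a known role and 20 partner genes. Members named only in lists of untested genes, and ZNF791, were named after their values were seen. The members and lists were chosen with earlier results of these data known, and the promoter letters, the clusters singled out and the KRAB profile after the values were seen. Alternatives covered the count model, scaling, filters, a replicate block, GC and length offsets, depth, the normalized signal, each library left out, and overlapping members.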

Additional observations from a re-analysis of the deposited data

How the results depend on the processing

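Among the members, 17 were called in the fit reported, 5 by DESeq2 and 7 without members that share exon sequence, and the counts ranged from 5 to 20 when single libraries were left out. The 12 called higher became 4 with DESeq2, 5 with library size only, 5 without overlapping members and 19 with GC and length offsets together with the replicate block, with a range of 4 to 16 without single libraries. The 5 called lower became 1 with DESeq2, 11 with library size only and 2 both with thinned 2-D libraries and without overlapping members, with a range of 0 to 5. The cause of these shifts was not tested. The split of higher against lower calls thus turned under library size scaling, 5 against 11. With the replicate block alone, 14 were higher and 5 lower. Over all tested genes, same-numbered libraries did not deviate together (correlation -0.0079). With 2 libraries per culture, this does not settle whether the numbers pair the libraries. The replicate block changed the calls over all genes from 1782 to 2167.

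The members' median log2 fold change was -0.0413 with library size only, where the median of all genes was -0.0646, and 0.0491 without overlapping members, with a range of 0.0245 to 0.0454. The median of the ZNF91 cluster was 0.0681 with library size only and 0.0795 to 0.163 without single libraries. In the ZNF480 cluster it was 0.0163 with library size only, 0.0983 with GC and length offsets, 0.0979 with these and the replicate block, and 0.0801 to 0.0823 without single libraries. The ZNF44 cluster had -0.148 with library size only, -0.0384 with GC and length offsets, -0.0381 with these and the replicate block and -0.0379 with thinned libraries, and -0.0818 to -0.0535 without single libraries. The alternatives for the 3 cluster medians, and members with a letter in the symbol (18 called), were chosen after seeing the data.

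Among 56 named genes tested, none of the 17 called members changed direction in any alternative, but 34 of 539 values of the other genes did. With library size only these were ZNF146 (-0.0524), ZNF274 (-0.0159), ZNF331 (-0.0102), ZNF714 (-0.0121), ZNF808 (-0.0513), TRIM28 (-0.0490), ATF7IP (-0.0238), HDAC2 (-0.0079), PPHLN1 (-0.0144), MORC2 (-0.0456), MORC3 (-0.0465) and ATRX (-0.0147). With thinned libraries they were ZNF224 (0.0060), ZNF420 (0.0216) and ZNF808 (-0.0125). With GC and length offsets, without and with the replicate block, they were ZNF486 (0.0334 and 0.0336) and TRIM28 (-0.0403 and -0.0405). Without single libraries the ranges crossed 0 for ZNF146 (-0.0014 to 0.0246), ZNF224 (-0.0812 to 0.0258), ZNF274 (-0.0076 to 0.107), ZNF382 (-0.0571 to 0.0228), ZNF486 (-0.0394 to 0.0292), ZNF808 (-0.0499 to 0.0738), TRIM28 (-0.0422 to 0.0730), CBX1 (-0.0620 to 0.0149), CHD4 (-0.167 to 0.0702), MORC2 (-0.0035 to 0.0445) and MORC3 (-0.0030 to 0.0404). DESeq2 gave no adjusted p for 9 of the named genes, ZNF181 and ZNF835 among them. With an arm of 1 library, that library is assumed to vary like the others. With 2 libraries per culture and changes mostly under 0.2 on the log2 scale, smaller differences of members with few counts were not detectable.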
